A study of Capra hircus with 3 samples.

Results

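A set of 35 genes that act in DNA replication or in mitosis was followed through the cell classes of 3 droplet single-cell RNA libraries of the goat (Capra hircus). The set has 15 S phase genes and 20 G2/M genes and was matched to the deposited features by exact symbol. All 15 S phase genes and 14 of the 20 G2/M genes had a feature, 29 of 27271 features in all. The cyclin CCNB1, the checkpoint kinase BUB1B, the spindle protein NUSAP1, survivin (BIRC5) and the ubiquitination factors UBE2C and CDC20 had no feature under those symbols and are not analysed here. The libraries are labelled male testis at the embryonic days E85, E105 and E125, all from tissue digested with enzymes, and the labels give 1 library per stage. The comparisons ask which of these genes are found throughout the germ-like cells and which sit in a few cells only. With no replicate library there is no test and no replicate error, and every interval is an exact 95% interval for counting error alone. The labels do not say how many animals went into a library. The libraries held 45339231, 40741902 and 49692252 UMIs (counted RNA molecules) in 7478, 8520 and 8346 barcodes.

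Cells copy their DNA in S phase and divide in M phase. Before S phase the MCM proteins are loaded on replication origins as a ring-shaped helicase by ORC1 and CDC6, and CDC45 and GINS2 then join the ring to start unwinding. PCNA is the sliding clamp of the polymerases, TYMS, RRM1 and RRM2 supply deoxynucleotides, and SLBP binds the messages of replication-dependent histones. Before and during mitosis CDK1 works with the cyclins CCNA2 and CCNB2, the kinases AURKA, AURKB, PLK1 and BUB1 order the spindle and its checkpoint, and TPX2 activates AURKA. KIF11 and KIF23 are spindle motors, CENPE and CENPF act at the kinetochore, CKAP2 binds microtubules and TOP2A untangles sister chromatids. Male germ cells of the fetal testis stop dividing before birth, while oocytes of the fetal ovary enter meiosis and arrest in its prophase with stores of messages for later divisions.

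Cells were classed by marker genes that are not in the set, at least 3 detected markers of a list and at least 2 times as many as of any other list, and classes of at least 50 cells were used. Germ-like cells numbered 205 at E85 and 75 at E105, and Sertoli-like cells, which enclose germ cells in the testis cords, 2294 and 1687. In the library labelled E125 the gate found 1 germ-like cell, 80 oocyte-like cells (ZP3 at 9726 CPM and FIGLA at 3660 CPM, counts per 1000000 UMIs of the class) and 159 pregranulosa-like cells, the somatic neighbours of oocytes (FST at 1598 CPM), so its contents go against the testis label. Over all its barcodes AMH, the Sertoli cell hormone, stood at 31.1 CPM, against 1365 CPM in E85 and 3690 CPM in E105. Stromal-like cells numbered 2148, 3372 and 4460 in the order of the stages, and endothelial-like cells 285, 254 and 680. T or NK lymphoid-like cells numbered 116 and 256 at E85 and E105, and E85 had 51 B lymphoid-like cells. The germ list summed to 2108 CPM in E85 and 2367 CPM in E105 germ-like cells, against 13.7 and 13.1 CPM in Sertoli-like cells. Cells that met no class made up 17.8%, 17.7% and 24.8% of those kept. Near the cut, 2 germ-like cells at E85 had exactly 3 markers and 8 cells were 1 marker short, whereas 408 Sertoli-like cells at E85 had exactly 3, as had 121 of the pregranulosa-like and 34 of the B lymphoid-like cells.

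Free RNA was read from markers that one class should lack. DDX4, a germ cell helicase, reached in Sertoli-like cells 0.498% of its germ-like level at E85 and 0.0756% at E105. It reached 2.34% and 0.433% in stromal-like cells, and 1.16% and 0.146% in endothelial-like cells. AMH stood in germ-like cells at 1.65% and 0.905% of its Sertoli-like level. ZP3, an egg coat protein, stood in pregranulosa-like cells at 0.293% of its oocyte-like level, in stromal-like cells at 1.13% and in endothelial-like cells at 0.767%. In germ-like cells 7 of 8 Sertoli markers had UMIs, with DHH at 0, and the list summed to 872 CPM at E85 and 1201 CPM at E105, against 3116 and 7759 CPM in Sertoli-like cells. AMH made up 35.8 and 62.5 CPM of these germ-like sums, and 2175 and 6904 CPM of the Sertoli-like ones. The rest of the germ-like sums came from other genes of the list. Whether germ-like cells make those themselves was not tested, so the sums are no measure of free RNA. The part of free RNA in the germ-like values below was not tested. Of the barcodes, 14 were shared between E85 and E105, 13 between E85 and E125 and 9 between E105 and E125.

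Most germ-like cells held several G2/M UMIs and few Sertoli-like cells did. Cells were thinned to 3000 UMIs each so that classes of different depth could be compared. Among E85 germ-like cells 129 of 202 held 3 or more summed G2/M UMIs (63.9%, 56.8 to 70.5), and among those of E105 55 of 75 did (73.3%, 61.9 to 82.9). Among Sertoli-like cells 6.26% (5.30 to 7.34) and 7.51% (6.28 to 8.90) did at the same stages. At least 1 G2/M UMI was found in 90.1% and 90.7% of the germ-like class and in 18.1% and 18.9% of the Sertoli-like class. The germ-like intervals at 3 UMIs lay far above the Sertoli-like ones at both stages, and the E85 and E105 germ-like intervals overlapped. Unthinned, the germ-like shares were 99.0% and 98.7% and the Sertoli-like shares 10.2% and 12.1%, at median depths of 19308 and 20231 UMIs against 10376 and 10336. For the S phase genes the thinned shares were 54.5% and 60.0% in germ-like cells and 8.12% and 11.6% in Sertoli-like cells (unthinned 97.6%, 98.7%, 31.6% and 39.6%). The median germ-like cell held 4 and 5 G2/M UMIs and 3 and 3 S phase UMIs, and the median Sertoli-like cell 0 of either. Over all UMIs of the germ-like class, CENPF alone gave 3492 of 7666 G2/M UMIs at E85 and 1279 of 3182 at E105. In the Sertoli-like class it gave 3196 of 12571 and 3277 of 12639.

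The classes differed in how the UMIs were spread over cells. At E85 10 or more G2/M UMIs were held by 10.4% of the germ-like (6.55 to 15.5) and 3.62% of the Sertoli-like class (2.89 to 4.47), and at E105 by 9.33% and 5.56%. The classes thus lay closer together at this height than at 3 UMIs. The 10% of Sertoli-like cells richest in G2/M UMIs held 93.0% of the class's G2/M UMIs at E85 and 94.6% at E105, and the richest 10% of germ-like cells 36.8% and 39.8%. The variance over the mean of the summed UMIs, which is 1 for counts scattered at random, was 22.9 and 28.3 in Sertoli-like and 5.33 and 9.61 in germ-like cells. For the S phase sums it was 2.18 and 2.29 in Sertoli-like and 1.58 and 2.16 in germ-like cells, so the classes differed less in the spread of this list.

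In oocyte-like cells of the library labelled E125 the G2/M UMIs were spread over most cells. Most of the 1994 CPM that the G2/M members summed to there came from AURKA, CENPF and CCNB2, whose levels are given below. At least 3 G2/M UMIs were found in 86.25% of them (76.7 to 92.9, 69 of 80) and in 6.29% of pregranulosa-like cells (3.06 to 11.3, 10 of 159). The richest 10% of oocyte-like cells held 24.1% of the G2/M UMIs, against 97.0% in pregranulosa-like cells, and the variance over the mean was 2.89 against 43.6. At least 3 S phase UMIs were found in 67.5% of oocyte-like cells (56.1 to 77.6) and 5.03% of pregranulosa-like cells (2.20 to 9.67), with a variance over the mean of 2.01 and 1.78, both above the 1.58 of E85 germ-like cells. Unthinned, the shares in the oocyte-like and pregranulosa-like classes were 98.75% and 11.9% for G2/M and 100% and 42.8% for S phase UMIs, at median depths of 122968 and 9026 UMIs.

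**Figure D1:**
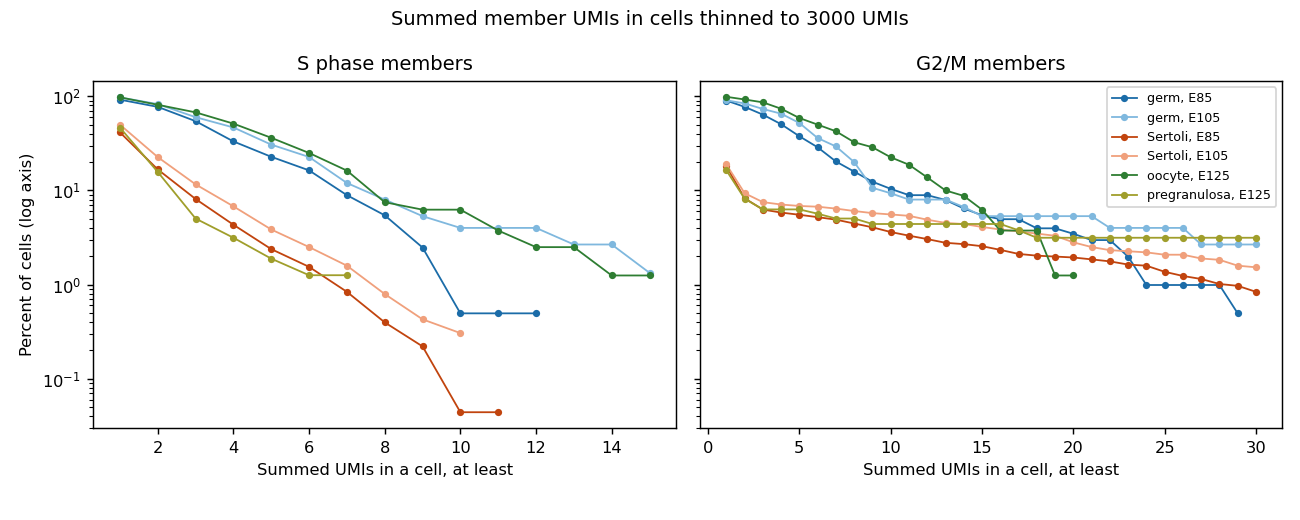
Percent of cells (vertical, log axis) with at least a given number of summed UMIs (horizontal) over the S phase members (left) and the G2/M members (right), in cells thinned to 3000 UMIs. Each line is a class in 1 library, drawn up to 30 UMIs. In the right panel the germ-like and oocyte-like lines start near 100% and fall steeply, while the Sertoli-like and pregranulosa-like lines drop below 10% by 3 UMIs and fall more slowly after that, the Sertoli-like ones to 0.838% and 1.53% at 30 UMIs.

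In stromal-like, endothelial-like and T or NK lymphoid-like cells of E85 and E105 the shares at 3 G2/M UMIs lay above the Sertoli-like and below the germ-like ones. At least 3 G2/M UMIs were found in 27.1%, 18.0% and 8.63% of stromal-like cells at E85, E105 and E125 and in 12.3%, 14.9% and 8.86% of endothelial-like cells. In T or NK lymphoid-like cells the shares were 12.8% (6.77 to 21.2) at E85 and 9.87% (6.29 to 14.6) at E105, and these intervals overlapped the Sertoli-like ones. With cells thinned to 2000 UMIs the stromal-like shares were 8.81%, 6.41% and 5.57%. Unthinned, the stromal-like shares were 6.19%, 5.43% and 6.28%. Only 277 of 2148, 651 of 3372 and 2340 of 4460 stromal-like cells reached 3000 UMIs, and the cells with at least 10 G2/M UMIs were the deeper ones (median 4046 UMIs against 3514 for the others at E85). The stromal-like shares therefore describe the deeper cells of that class. At 10 or more G2/M UMIs the stromal-like shares were 22.0%, 12.7% and 5.98%, and the variance over the mean was 53.6, 64.2 and 63.7.

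A cell rich in G2/M UMIs was not always rich in S phase UMIs. Among the 82 Sertoli-like cells at E85 with at least 10 G2/M UMIs, 9.76% had at least 3 S phase UMIs, against 8.05% of the others. At E105 it was 25.3% of 91 cells against 10.8%. Among stromal-like cells at E85 it was 60.7% of 61 cells against 28.2%, and in germ-like cells 66.7% of 21 cells against 53.0% at E85 and 57.1% of 7 cells against 60.3% at E105. Oocyte-like cells had 72.2% of 18 cells against 66.1%. In germ-like and oocyte-like cells most cells on both sides of the line held at least 3 S phase UMIs. The cells with at least 10 G2/M UMIs had higher depth before thinning in most of these classes, with medians of 31977 against 18956 UMIs in E85 germ-like and 15069 against 10336 in E85 Sertoli-like cells, and lower depth in oocyte-like cells; its part was not tested.

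A concentration ratio gave the same view gene by gene. Cells were ranked by the summed UMIs of the other members, and a gene's level in the top 10% of cells was divided by its level in the other 90%. A gene found only in the cells that hold the other members gets a high ratio, and a gene found alike in all cells gets a ratio near 1. Members with at least 20 thinned UMIs in the class were read, 3 or more was called concentrated and under 1.5 even. Even thus also covers a gene that sits in cells poor in the other members. UMIs of a gene come clustered in cells, so the intervals of these ratios are too narrow.

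In Sertoli-like cells the G2/M genes sat almost wholly in a small set of cells. All 12 measured G2/M members were concentrated at E85 and all 13 at E105, against 3.62% and 3.87% of all measured features. Their median ratio was 71.9 at E85 (24.9 to 198 over genes) and 92.8 at E105 (36.6 to 349). The most concentrated at E85 were the midzone motor KIF23 (198, 64.8 to 983), CENPF (148, 107 to 210) and the chromosomal passenger kinase AURKB (146, 54.4 to 552). At E105 these same 3 genes led, with CENPF at 349, KIF23 at 305 and AURKB at 225. BUB1 (24.9), CKAP2 (30.3) and AURKA (34.5) were the least concentrated at E85, and CKAP2 (36.6), CCNB2 (48.1) and BUB1 (49.1) at E105.

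The S phase genes of Sertoli-like cells were less concentrated in this ranking, which counts the UMIs of both lists. G2/M UMIs weighed more in it, with mean sums per cell of 1.16 G2/M and 0.760 S phase UMIs at E85. At E105 the means were 1.65 and 1.00. At E85 10 of 12 measured members and at E105 7 of 12 reached a ratio of 3, with medians of 4.09 and 3.63. At E85 the small subunit of ribonucleotide reductase RRM2 (49.4, 16.8 to 197), the helicase cofactor CDC45 (13.1, 5.70 to 31.2) and ORC1 (5.99, 2.63 to 13.2) led. At E105 CDC45 (11.2), the helicase loader CDC6 (7.60) and ORC1 (4.25) led, and RRM2 had 19 thinned UMIs, under the minimum. SLBP (1.96), MCM2 (2.50) and MCM7 (3.09) had the lowest ratios at E85, and MCM6 (1.45), MCM4 (1.85) and MCM3 (2.13) at E105. RRM1, the large subunit of the same enzyme as RRM2, stood at 3.61 and 3.44. The large subunit was found in 10.2% and the small subunit in 1.01% of thinned E85 Sertoli-like cells.

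In germ-like cells the S phase members were even about as often as all features were. Of the 8 measured S phase members at E85, 6 were even and 1, ORC1, was just past the line (3.04, 0.982 to 8.09), against 78.4% even and 1.89% concentrated over all measured features. The helicase subunits had ratios of 0.761 for MCM3, 0.958 for MCM7, 1.02 for MCM4, 1.39 for MCM5 and 1.68 for MCM6, RRM1 had 0.784 and SLBP 1.08. At E105 4 of the 6 measured S phase members were even and none was concentrated (background 76.9% and 2.22%), with RRM1 lowest at 0.698 and SLBP highest at 1.99. These counts depended on the settings. With cells thinned to 6000 UMIs 3 of the 8 members at E85 stayed under 1.5, with SLBP at 2.73, MCM4 at 2.685 and MCM6 at 2.39, and at E105 MCM4 stood at 3.15. With at most 10% mitochondrial UMIs MCM3 stood at 3.84 and SLBP at 5.03 at E105.

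The G2/M genes of germ-like cells were mixed. At E85 4 of 10 measured members were concentrated, TOP2A (5.75, 3.66 to 8.92), CCNB2 (4.31, 1.71 to 10.1), KIF23 (3.69, 1.16 to 10.2) and CKAP2 (3.40, 1.74 to 6.33). KIF11, the motor that pushes spindle poles apart, was even (0.616, 0.0711 to 2.44), as was CENPE (1.23, 0.612 to 2.27). AURKA (1.83), BUB1 (2.16), CENPF (2.71) and TPX2 (2.81) lay between. At E105 TOP2A led again (6.76, 3.62 to 12.5), followed by CENPF (4.41, 3.25 to 5.95) and AURKA (3.53, 1.34 to 8.44), and CENPE (1.675, 0.628 to 3.83) was again lowest, with TPX2 (2.19) and CKAP2 (2.91) next. KIF11 had 12 thinned UMIs there, too few to place. The median over the measured G2/M members was 2.76 at E85 and 3.22 at E105. These ratios rest on few UMIs and moved with the settings. With cells thinned to 6000 UMIs KIF11 stood at 4.475 at E85 and 8 members of both lists were concentrated in place of 5, and without the 5% deepest cells 3 were. At E105 6 members were concentrated in place of 3 at 6000 UMIs, and likewise with at most 10% mitochondrial UMIs. TOP2A stayed at 3.78 or more and CENPE at 1.68 or less in germ-like cells of both stages under these 3 settings.

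In E85 stromal-like cells, of which only the 277 with 3000 UMIs or more were read, all 13 measured G2/M members were concentrated (6.02% of all features), with a median ratio of 18.2. In the same cells 7 of 9 S phase members were even (74.7% of all features) with a median of 0.675. The ranking there rested mostly on G2/M UMIs, with mean sums of 9.94 G2/M and 3.04 S phase UMIs per cell. The S phase UMIs were not spread alike over these cells. Their variance over the mean was 5.50, and the 10% of cells richest in them held 41.6%. With cells ranked by the gene's own list, a setting chosen after seeing the data, 20 members of both lists in place of 13 were concentrated there. That ranking gave 6 in place of 5 members in E85 and 2 in place of 3 in E105 germ-like cells.

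In oocyte-like cells no measured member was concentrated and all 9 were even, against 1.96% and 76.4% of all measured features. AURKA was found in 82.5% of thinned oocyte-like cells (72.4 to 90.1) and had a ratio of 1.41 (0.919 to 2.10). CENPF (0.912), CCNB2 (0.878), TPX2 (0.545), MCM3 (1.18), MCM7 (0.818), SLBP (0.600), MCM5 (0.514) and RRM1 (0.375) completed the measured members. With cells ranked by the gene's own list, with at most 10% mitochondrial UMIs, or with cells thinned to 6000 UMIs, 1 member was concentrated there, at 6000 UMIs TPX2 (3.30). With at most 10% mitochondrial UMIs AURKA (1.93), RRM1 (1.86) and CENPF (1.79) were no longer even. In pregranulosa-like cells all 5 measured G2/M members were concentrated (2.4% of all features). There TOP2A had 94 thinned UMIs in 6.29% of cells and 0 in the other 90%.

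**Figure D2:**
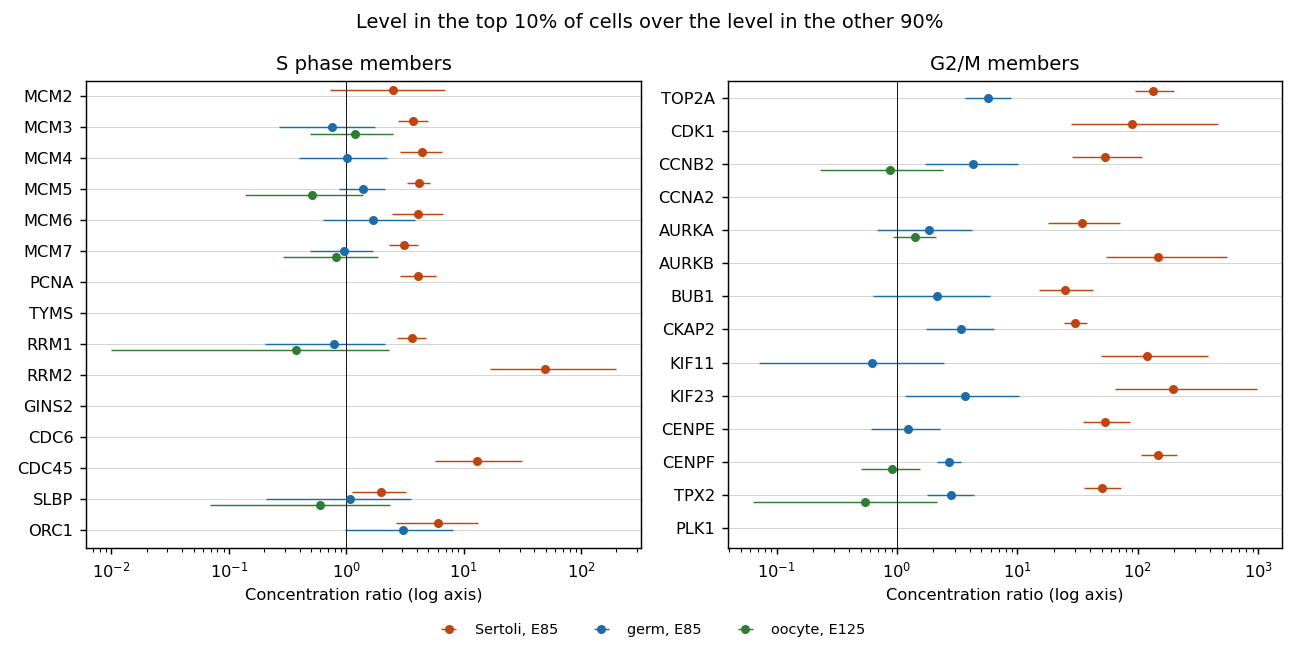
Concentration ratio (horizontal, log axis) of each S phase member (left) and G2/M member (right) with at least 20 thinned UMIs, in E85 Sertoli-like, E85 germ-like and E125 oocyte-like cells. Bars are exact 95% counting intervals and the vertical line is a ratio of 1. The Sertoli-like G2/M points lie from 24.9 to 198, the germ-like ones from 0.616 to 5.75 and the oocyte-like ones from 0.545 to 1.41.

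The 90% of cells with the fewest UMIs of the other members show the level outside the richest cells. At E85 CENPF stood there at 639 CPM in germ-like and 6.37 CPM in Sertoli-like cells, a ratio of 100 (71.9 to 143). At E105 it stood at 652 and 4.07 CPM, a ratio of 160 (97.4 to 278). CENPF was found in 69.8% and 73.3% of thinned germ-like cells and in 6.40% and 6.90% of Sertoli-like cells, with means of 3.23 and 3.64 UMIs per germ-like cell that had it, and 4.70 and 6.35 per Sertoli-like cell that had it.

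Other G2/M genes had the same order in these cells. KIF11 stood at 51.6 against 0.817 CPM at E85 (ratio 63.1, 24.1 to 209) and at 34.8 against 3.17 CPM at E105 (ratio 11.0, 3.75 to 29.1). CENPE stood at 155 against 4.08 CPM (ratio 37.9, 24.0 to 61.8) and at 174 against 2.49 CPM (ratio 70.0, 34.7 to 153). AURKA stood at 60.8 against 1.96 CPM (ratio 31.0, 15.6 to 65.9) and at 94.5 against 1.13 CPM (ratio 83.5, 30.2 to 286). These 3 genes, a pole motor, a kinetochore motor and a spindle kinase, were thus at most a few CPM in most Sertoli-like cells. TOP2A stood at 99.4 against 5.23 CPM at E85 (ratio 19.0, 12.1 to 30.4) and at 129 against 8.83 CPM at E105 (ratio 14.7, 8.57 to 24.7). CKAP2 differed least among the well counted G2/M genes, with ratios of 3.69 (2.49 to 5.37) and 5.32 (3.22 to 8.46).

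S phase genes differed less outside the richest cells. The helicase subunits had ratios from 4.62 (MCM3) to 8.99 (MCM4) at E85 and from 2.48 (MCM6) to 5.98 (MCM5) at E105. CDC45 stood at 22.1 against 1.80 CPM at E85 (ratio 12.3, 4.97 to 30.8) and ORC1 at 31.3 against 2.94 CPM (ratio 10.6, 5.15 to 21.9). PCNA was the exception, at 18.4 against 18.0 CPM at E85 (ratio 1.02, 0.478 to 1.96) and 14.9 against 26.7 CPM at E105 (ratio 0.559, 0.114 to 1.67).

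**Figure D3:**
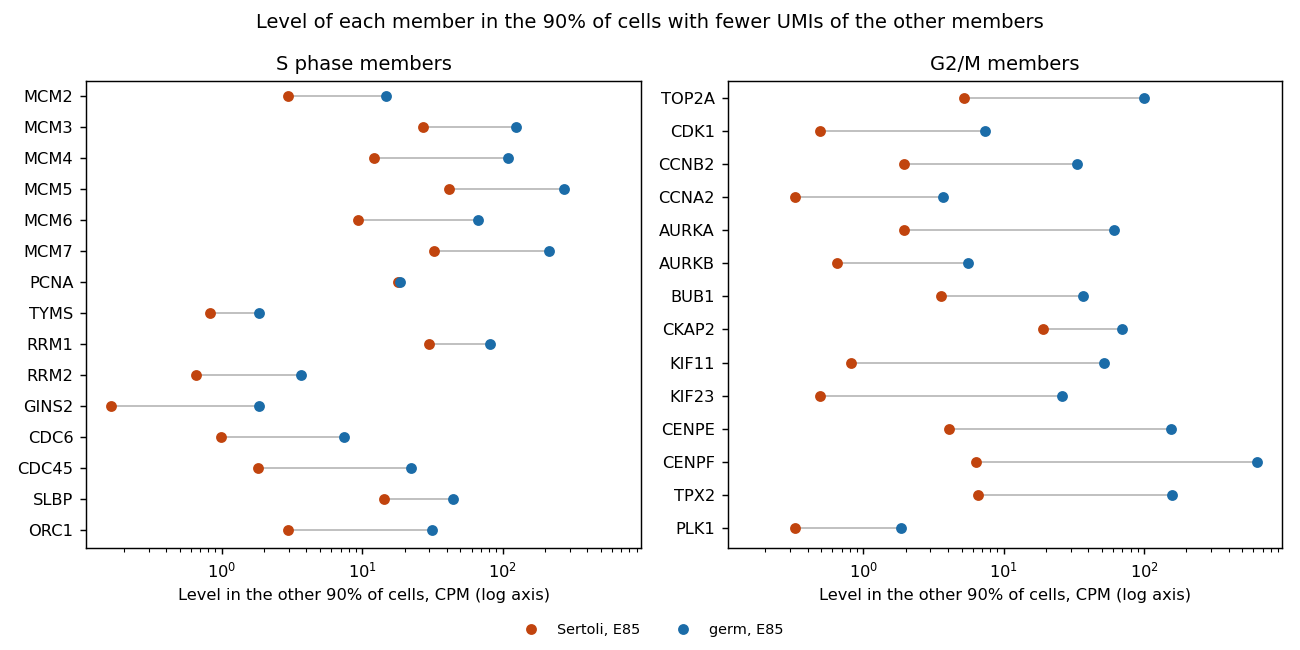
Level (CPM, horizontal, log axis) of each S phase member (left) and G2/M member (right) in the 90% of E85 cells with the fewest UMIs of the other members, germ-like in blue and Sertoli-like in red. The points of a gene are joined by a line. Among the G2/M genes the lines are longest for CENPF, KIF11 and KIF23, and the points of PCNA nearly coincide.

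Summed over the whole class, both lists were higher in germ-like than in Sertoli-like cells of the same library. At E85 11 of 15 S phase and 11 of 14 G2/M members were at least 2 times higher, and no member was called at least 2 times lower. AURKB lay at that line, with a ratio of 0.497. The calls used log2 ratios with 0.5 UMI added, −0.99 for AURKB. Of all measured features 49.6% were higher and 14% lower. At E105 14 of 15 and 11 of 14 were higher and none lower, against 50.9% and 14.2%. The median log2 ratios were 1.75 (S phase) and 1.59 (G2/M) at E85, and 2.13 and 1.71 at E105, with all features at 0.98 and 1.04. When ratios were centred on that shift, 10 members at E85 and 12 at E105 were still at least 2 times higher, and 1 and 2 were lower.

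Among the helicase subunits MCM4 and MCM5 were high in germ-like cells at both stages. MCM4 stood at 109 and 151 CPM in germ-like cells at E85 and E105 and at 19.5 and 22.8 CPM in Sertoli-like cells, with ratios of 5.62 (4.94 to 6.40) and 6.63 (5.63 to 7.80). MCM5 stood at 306 and 366 CPM against 66.3 and 69.1 CPM (ratios 4.62 and 5.30). The other subunits were also at least 2 times higher at both stages, with ratios of 5.08 and 4.85 for MCM7, 4.70 and 5.24 for MCM6, 3.56 and 3.65 for MCM2 and 3.22 and 3.35 for MCM3. All subunits of the ring were thus past the 2-fold line at both stages, and with ratios centred on all features MCM2 and MCM3 were inside it.

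The loading and firing factors were higher too. ORC1 stood at 29.3 and 45.4 CPM in germ-like cells against 6.22 and 6.55 CPM in Sertoli-like cells (ratios 4.71, 3.68 to 6.01, and 6.93, 5.10 to 9.37). CDC6 had ratios of 3.43 and 5.15, and CDC45 of 2.88 and 4.33. SLBP stood at 50.8 and 144 CPM against 15.1 and 32.6 CPM (ratios 3.37 and 4.43). Centred on all features, CDC6, CDC45 and SLBP were inside the 2-fold line at E85 and past it at E105, and ORC1 was past it at both stages. GINS2 had 4 and 5 UMIs in germ-like cells, with ratios of 1.34 (0.330 to 4.07) and 3.79 (1.08 to 11.0), too few UMIs for a firm value.

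Among the nucleotide enzymes and the clamp the ratios ranged widely. RRM1 had ratios of 2.60 and 2.55. RRM2 stood at 7.50 and 13.9 CPM in germ-like cells against 5.30 and 3.67 CPM (ratios 1.42, 0.926 to 2.11, and 3.79, 2.23 to 6.22). TYMS had ratios of 1.49 (0.851 to 2.48) and 2.42 (1.32 to 4.20). With ratios centred on all features RRM1, RRM2 and TYMS were inside the 2-fold line at both stages. PCNA stood at 40.2 and 45.4 CPM against 29.3 and 35.1 CPM (ratios 1.37 and 1.29), and its E85 log2 ratio was −0.52 centred on the shift of all features and −0.083 from thinned cells.

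Among the G2/M kinases AURKA and AURKB differed. AURKA stood at 81.1 and 111 CPM in germ-like cells and at 11.7 and 16.1 CPM in Sertoli-like cells (ratios 6.94, 5.92 to 8.15, and 6.92, 5.70 to 8.37). AURKB stood at 7.02 and 12.0 CPM against 14.1 and 16.8 CPM (ratios 0.497, 0.328 to 0.727, and 0.712, 0.423 to 1.13). With every cell thinned to the same depth before summing, the E85 log2 ratio of AURKB was 0.070, against −0.99 from all UMIs, so its direction changes with the setting. BUB1 had ratios of 3.32 and 3.26, and PLK1, with 23 and 8 UMIs in germ-like cells, of 3.02 and 3.25. Both were inside the 2-fold line at both stages when centred on all features.

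CDK1 and its cyclins were past the 2-fold line in germ-like cells, a line that the median feature lay close to. Centred on all features, CCNA2 at E105 alone among these 3 genes stayed past it. CDK1 stood at 14.8 and 20.2 CPM against 6.90 and 9.72 CPM (ratios 2.14 and 2.08), CCNB2 had ratios of 2.98 and 2.51, and CCNA2 of 2.88 and 4.45. Among the spindle and kinetochore genes CENPF stood at 845 and 807 CPM against 128 and 182 CPM (ratios 6.59, 6.28 to 6.92, and 4.43, 4.15 to 4.73). CENPE had ratios of 4.72 and 4.16, KIF11 of 4.46 and 3.27, TPX2 of 4.34 and 3.61, and KIF23 of 2.49 and 2.17. With centred ratios KIF23 was inside the 2-fold line at both stages, and KIF11 and TPX2 were inside it at E105.

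TOP2A and CKAP2 did not reach the 2-fold line. TOP2A stood at 188 and 225 CPM in germ-like cells against 95.4 and 135 CPM (ratios 1.97, 1.81 to 2.14, and 1.66, 1.48 to 1.85), and centred on the shift of all features its log2 ratios were −0.0026 and −0.30. CKAP2 stood at 99.7 and 121 CPM against 91.1 and 133 CPM (ratios 1.09 and 0.909). The 51 B lymphoid-like cells of E85 were also read for these genes. They held CENPF at 812 CPM (717 to 916), close to the 845 CPM of germ-like cells, and TOP2A at 827 CPM (732 to 932) and CDK1 at 79.4 CPM (51.9 to 116), far above the germ-like 188 and 14.8 CPM.

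**Figure D4:**
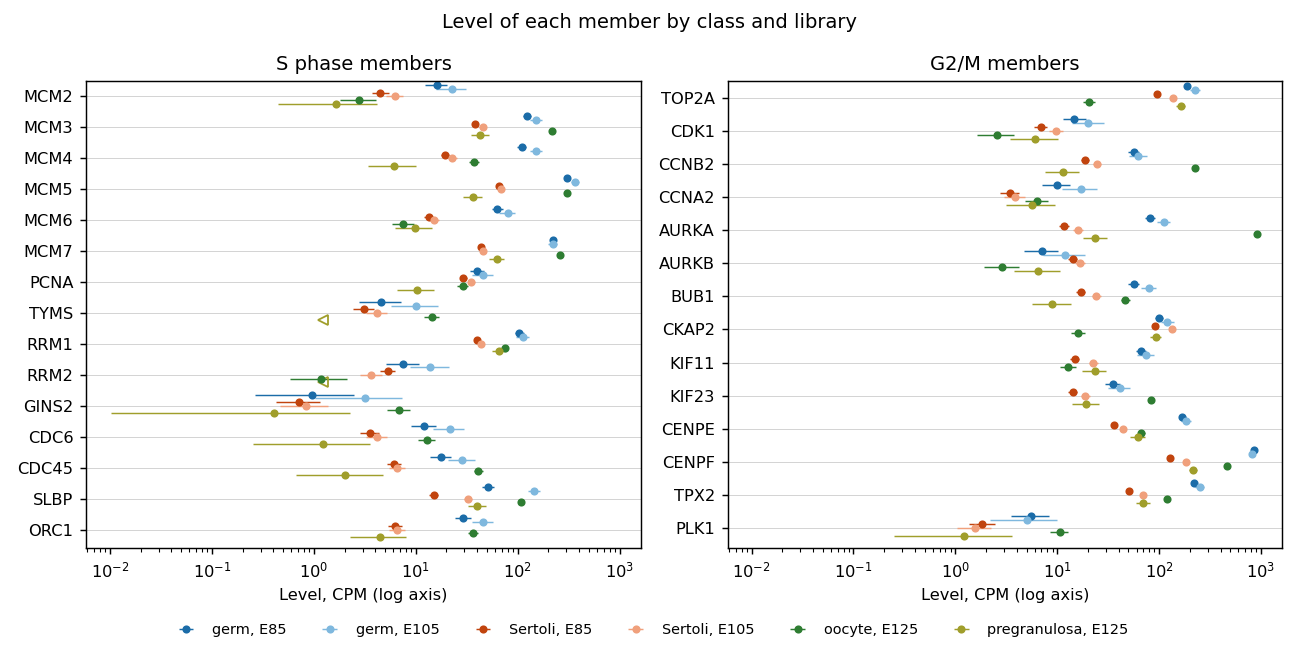
Level (CPM, horizontal, log axis) of each S phase member (left) and G2/M member (right) in germ-like, Sertoli-like, oocyte-like and pregranulosa-like cells. Points are class sums, bars exact 95% counting intervals, and open triangles mark the limit of 3 counts for genes with 0 UMIs. The oocyte-like point of AURKA (917 CPM) lies far to the right of its other points, and the oocyte-like point of TOP2A (20.5 CPM) to the left of its own.

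Most S phase members stood higher in oocyte-like cells than in their somatic neighbours. In class sums of all UMIs the G2/M members were split much as all features were, but their median depended on the settings. Against pregranulosa-like cells of the same library, 11 of 14 measured S phase members and 6 of 14 G2/M members were at least 2 times higher, and 0 and 4 at least 2 times lower. Of all measured features 39.2% were higher and 22.2% lower. The median log2 ratio was 2.44 for S phase and 0.45 for G2/M members, with all features at 0.41. With class sums taken from thinned cells, 9 members of both lists were at least 2 times higher and 2 lower, and the G2/M median was 1.44. The G2/M median was 0.95 with a minimum of 50 UMIs and 0.92 with a gate of 2 markers. The median of all features under these settings is not given here.

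The highest ratio among the G2/M members was that of AURKA, whose kinase is needed for the meiotic spindle. It stood at 917 CPM in oocyte-like and 23.6 CPM in pregranulosa-like cells (ratio 38.8, 30.0 to 51.2). CCNB2 stood at 225 against 11.4 CPM (ratio 19.7, 13.6 to 29.8). PLK1 stood at 10.5 against 1.22 CPM (ratio 8.62, 2.86 to 42.5, from 3 UMIs in pregranulosa-like cells). BUB1 had a ratio of 5.20, KIF23 of 4.34 and CENPF of 2.15 (463 against 215 CPM). TPX2, the activator of AURKA, was 1.73 times as high (1.47 to 2.04), and CENPE (1.08), CCNA2 (1.10) and KIF11 (0.550) also stayed inside the 2-fold lines.

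CDK1, the partner of CCNB2, stood at 2.55 CPM in oocyte-like against 6.11 CPM in pregranulosa-like cells (ratio 0.418, 0.210 to 0.857). AURKB stood at 2.87 against 6.52 CPM (ratio 0.441, 0.229 to 0.876). TOP2A stood at 20.5 against 163 CPM (ratio 0.126, 0.106 to 0.150) and CKAP2 at 16.0 against 92.1 CPM (ratio 0.173, 0.140 to 0.214). These 4 genes were lower in the class sums. The pregranulosa-like sums rest on few cells, since 7 of 159 held at least 10 G2/M UMIs. In the other 90% of cells TOP2A stood at 18.5 CPM in oocyte-like cells, from 4 UMIs, and had 0 UMIs in pregranulosa-like cells. The lower counting bound of that ratio was 1.31. CKAP2 stood in these cells at 32.4 against 9.32 CPM (ratio 3.48, 0.884 to 16.2).

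Among the S phase genes the helicase subunits were uneven in oocyte-like cells. MCM5 stood at 303 against 36.3 CPM in pregranulosa-like cells (ratio 8.36, 6.77 to 10.4), MCM7 at 263 against 62.3 CPM (4.22) and MCM3 at 215 against 42.8 CPM (5.03). MCM4 stood at 37.2 against 6.11 CPM (6.09). MCM6 stood at 7.56 against 9.78 CPM (ratio 0.773, 0.480 to 1.28) and MCM2 at 2.77 against 1.63 CPM (ratio 1.70, 0.589 to 6.69). Of the 6 subunits 4 were thus past the 2-fold line in oocyte-like cells. In germ-like cells all 6 were past it, but MCM2 and MCM3 were inside it with ratios centred on all features. The 2 counts are not a like comparison, since the somatic classes differ. The median log2 ratio of all features was 0.41 over pregranulosa-like cells, and 0.98 and 1.04 over Sertoli-like cells at E85 and E105.

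The firing and loading factors were all past the line in oocyte-like cells. CDC45 stood at 41.2 against 2.04 CPM (ratio 20.2, 8.59 to 62.6), ORC1 at 36.6 against 4.48 CPM (8.17), CDC6 at 12.8 against 1.22 CPM (10.4, 3.49 to 51.4, from 3 UMIs) and GINS2 at 6.81 against 0.407 CPM (16.7, 2.89 to 670, from 1 UMI). TYMS stood at 14.4 CPM and had 0 UMIs in pregranulosa-like cells, 11.8-fold higher when the limit of 3 counts is put in place of 0. SLBP (2.72) and PCNA (2.83) were higher as well, and RRM1 (1.14, 0.960 to 1.36) was inside the lines. RRM2 had 11 UMIs in oocyte-like and 0 in pregranulosa-like cells, which allows no fold.

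Between E85 and E105 more S phase than G2/M members were higher in germ-like cells. At E105 6 of 14 measured S phase and 2 of 14 G2/M members, 8 of 28 in all, were at least 1.5 times higher. None was lower. Of all measured features 20.4% were higher and 4.53% lower, so the S phase count lay above that share and the G2/M count below it. A ratio above 1 was found for 14 S phase and 12 G2/M members, and for 7113 of 10158 features. The median log2 ratio was 0.49 for the 14 measured S phase and 0.25 for the 14 G2/M members, with all features at 0.21. Centred on that shift, or with class sums taken from thinned cells, 4 members were at least 1.5 times higher.

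SLBP had the highest ratio among the measured members in germ-like cells and was past 1.5 times in 3 further classes. It stood at 50.8 CPM at E85 and 144 CPM at E105 in germ-like cells (ratio 2.84, 2.35 to 3.45), at 15.1 and 32.6 CPM in Sertoli-like cells (2.16, 1.90 to 2.47), at 15.5 and 39.1 CPM in stromal-like cells (2.53, 1.96 to 3.29) and at 13.7 and 27.0 CPM in endothelial-like cells (1.97, 1.15 to 3.47). In T or NK lymphoid-like cells its ratio was 1.27 (0.795 to 2.10).

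The remaining 7 were genes of lower count than SLBP. TYMS rested on 19 and 16 UMIs (ratio 2.20, 1.06 to 4.51), RRM2 on 31 and 22 (1.85, 1.02 to 3.30) and AURKB on 29 and 19 (1.71, 0.905 to 3.15). CDC6 (1.77, 1.11 to 2.80), CCNA2 (1.72, 1.02 to 2.86), CDC45 (1.61, 1.08 to 2.36) and ORC1 (1.55, 1.14 to 2.09) had lower bounds close to 1. The members better counted than these, apart from SLBP, were closer to 1. Among them were MCM7 at 1.00 (0.881 to 1.13), CENPF at 0.955 (0.895 to 1.02), CENPE at 1.09 and TOP2A at 1.20 (1.05 to 1.36). BUB1 (1.40, 1.12 to 1.75), MCM4 (1.38, 1.18 to 1.62) and AURKA (1.37, 1.13 to 1.65) stayed under 1.5 with intervals above 1.

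In Sertoli-like cells 1 of 14 G2/M members, KIF11, was at least 1.5 times higher at E105 (14.9 to 22.5 CPM, ratio 1.52, 1.31 to 1.75) and none lower, with 13.2% of all features higher and 5.01% lower. The median log2 ratio of the G2/M members was 0.45, with all features at 0.08. A ratio above 1 was found for 13 of the 14, and for 6900 of 11456 features. CKAP2 (1.45), BUB1 (1.43), TOP2A (1.42), CENPF (1.42) and CDK1 (1.41) followed. The S phase median was 0.21, and RRM2 had a ratio of 0.692 (0.507 to 0.937), a log2 ratio of −0.53 that became 0.027 with sums of thinned cells. With those sums 7 members of both lists were at least 1.5 times higher in place of 2, and with centred ratios 1 was higher and 1 lower.

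The lists parted in endothelial-like cells. There 7 of 13 measured G2/M members were at least 1.5 times higher at E105 and none lower, and of 11 measured S phase members 1 was higher and 2 lower, with 14.6% of all features higher and 4.7% lower. CDK1 stood at 8.07 CPM at E85 and 32.1 CPM at E105 (ratio 3.97, 2.13 to 7.97, 13 and 50 UMIs), KIF23 had a ratio of 1.62, CENPF of 1.59, BUB1 of 1.58 and CENPE of 1.57. The medians were 0.62 for G2/M and −0.26 for S phase members, with all features at 0.09. With centred ratios 3 members of both lists were higher in place of 8, and with sums of thinned cells none was lower in place of 2. The shares of cells did not differ beyond counting error, with 12.3% (8.21 to 17.5) and 14.9% (10.1 to 20.8) of cells at 3 or more G2/M UMIs.

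In stromal-like cells the medians were 0.04 and −0.08, and 1 member was higher (SLBP) and 1 lower at E105 (13.6% and 5.41% of all features). With sums of thinned cells 8 were lower and the G2/M median was −0.58. The lower one was RRM2, at 22.8 and 11.5 CPM (ratio 0.502, 0.378 to 0.665). In T or NK lymphoid-like cells 4 of 13 measured G2/M members were at least 1.5 times lower at E105 and none higher, and of 11 S phase members 2 were higher and 1 lower (12.2% of all features higher and 10.6% lower). CENPF there stood at 385 and 215 CPM (ratio 0.558, 0.476 to 0.654), and the G2/M median was −0.43. With sums of thinned cells no member was higher in place of 2. Over both lists 5 members were lower, which became 12 with a gate of 2 markers, 3 with at most 10% mitochondrial UMIs and 2 with at least 50 UMIs. RRM2 had a ratio of 0.468 (0.247 to 0.886) in these cells.

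**Figure D5:**
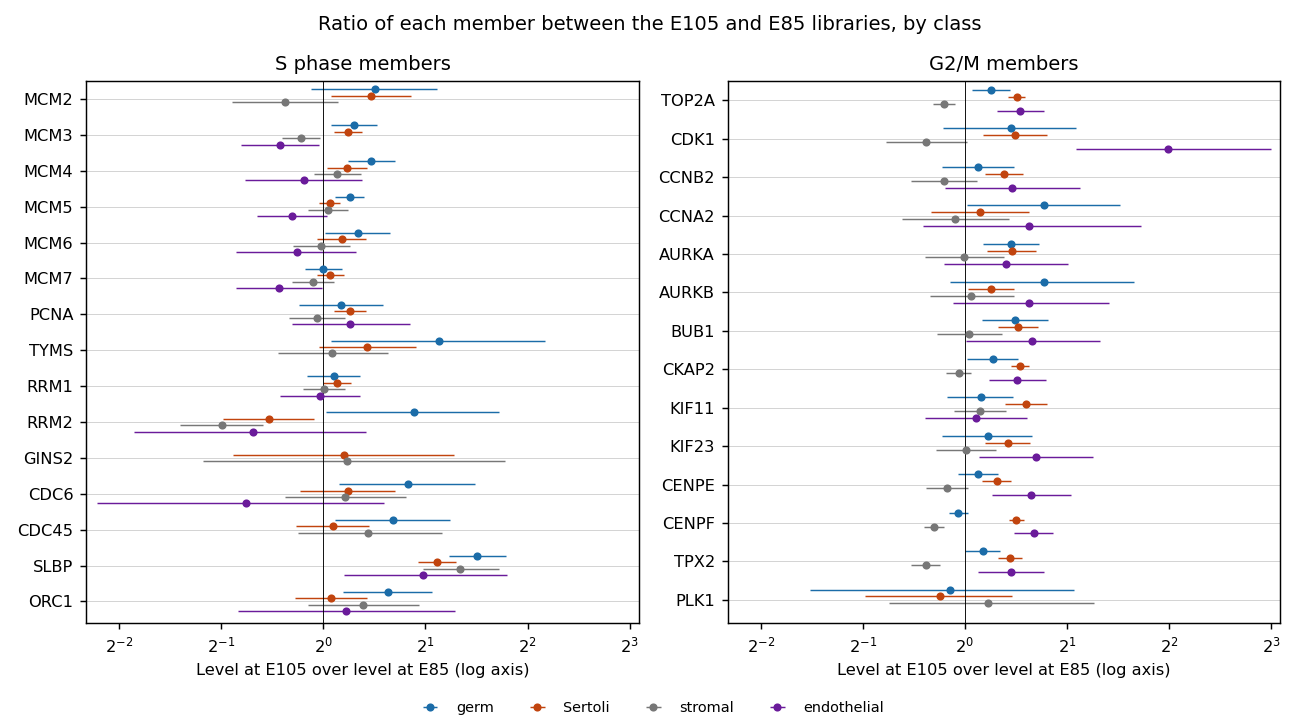
Level at E105 over level at E85 (horizontal, log axis) of each S phase member (left) and G2/M member (right) in germ-like, Sertoli-like, stromal-like and endothelial-like cells. Bars are exact 95% counting intervals, and genes under 20 UMIs over both libraries are left out. SLBP lies right of 1 in all 4 classes, and most germ-like G2/M points lie between 0.907 and 1.40.

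Further genes of both pathways were read as a wider list. In germ-like against Sertoli-like cells 14 of 17 measured replication genes and 21 of 25 mitosis genes were at least 2 times higher at E85, and 16 of 17 and 19 of 25 at E105, with none lower, where 49.6% and 50.9% of all features were higher. SMC4, a condensin subunit, stood at 428 and 454 CPM in germ-like cells (ratios 4.62 and 4.05), the motor KIF20B at 371 and 435 CPM (5.47 and 5.97) and the clamp loader RFC4 at 295 and 278 CPM (4.50 and 4.13). In oocyte-like against pregranulosa-like cells 12 of 18 and 14 of 24 were higher and 0 and 3 lower, against 39.2% and 22.2% of all features. RFC4 stood there at 515 against 36.7 CPM (ratio 14.0, 11.4 to 17.5), KIF20B at 346 CPM (3.29) and CDCA8, a subunit of the complex that holds AURKB, at 289 against 13.4 CPM (21.5, 15.3 to 31.3). Between stages 4 of 17 replication and 1 of 24 mitosis genes were at least 1.5 times higher and 0 and 1 lower in germ-like cells at E105, against 20.4% and 4.53% of all features, so these counts were near or below the background.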

How the data were processed

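Single-cell RNA of 3 libraries was captured in droplets with the v3.1 kit, per the labels' protocols. The authors deposited filtered matrices of raw UMI counts, made with Cell Ranger 6.0.0 per the file headers and 3.1 per the submitters' processing notes. The genome build is not given in the sources used here. Of 27271 features 16616 had a symbol, and members without a matching symbol were left out.

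Kept were 6328, 7069 and 7319 barcodes, each with 1000 UMIs and 500 genes or more, and with 13 mitochondrial genes taking 20% of the UMIs at most. Classes came from 14 marker lists, with 4 markers needed for oocyte-like cells. The gate used all UMIs, but thinned UMIs for oocyte-like and pregranulosa-like cells, a change made after the data were seen, since the gate on all UMIs kept 58 in place of 80 oocyte-like cells. No doublet caller was run. The gate only asks for at least 2 times as many markers of a list as of any other, so a mixed cell can pass it. The germ and oocyte lists were not set against each other. Leaving out the 5% deepest cells was an alternative.

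Cells with at least 3000 UMIs were thinned to 3000 for all values per cell. Levels are UMIs summed over a class per 1000000, and log2 ratios have 0.5 UMI added to each sum. Ratios were called from 1.5 times between stages and 2 times between classes, with at least 20 UMIs over both sums. Intervals are exact (binomial and Poisson) at 95%, and the limit of a count of 0 is 3 counts. Since UMIs of a gene come clustered in cells, the intervals of class levels and of their ratios are too narrow as well. Without replicates no p-value was computed. The ratio step was tested on simulated class sums drawn as independent counts. These lack the clustering of UMIs in cells, so the test does not cover its effect on the intervals. The concentration step was tested on simulated cells at Sertoli-like levels. Classes as small as the germ-like ones were not simulated.

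The members, gene lists, markers and tests were chosen with earlier results of these data known. Full values are given for members past the 2-fold line in germ-like or oocyte-like cells, past 1.5 times between stages in germ-like cells, and for the 3 most and 3 least concentrated of each list. KIF11 and TPX2 under other settings, B lymphoid-like cells, and ranking by the gene's own list were added after their values were seen. Alternatives covered depth, gates, filters, centring and class sums. Tools were Python 3.11.15, numpy 2.4.6, scipy 1.17.1, pandas 2.3.3 and matplotlib 3.10.9.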

Additional observations from a re-analysis of the deposited data

Results flagged for a closer look

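For 6 members the E105 level stood above the E85 level in one class and below it in another, with each 95% counting interval on its own side of 1. With 1 library per stage the difference between classes was not tested, and the intervals cover counting error only. UMIs of a gene come clustered in cells, so these intervals are too narrow. Thinned T or NK lymphoid-like cells with at least 10 G2/M UMIs numbered 8 at E85 and 15 at E105. In the endothelial-like class they numbered 16 and 18. Whether the opposite directions go beyond this clustering was not tested.

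MCM3, a subunit of the replicative helicase, had ratios of 1.229 in germ-like and 1.181 in Sertoli-like cells, against 0.861 in stromal-like and 0.747 in endothelial-like cells. RRM2, the small subunit of ribonucleotide reductase, had a ratio of 1.85 in germ-like cells, against 0.692 in Sertoli-like, 0.502 in stromal-like and 0.468 in T or NK lymphoid-like cells. TOP2A, which untangles sister chromatids, had ratios of 1.196 in germ-like, 1.421 in Sertoli-like and 1.456 in endothelial-like cells, against 0.868 in stromal-like and 0.803 in T or NK lymphoid-like cells.

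CENPE, a kinetochore motor, had ratios of 1.242 in Sertoli-like and 1.566 in endothelial-like cells, against 0.702 in T or NK lymphoid-like cells. CENPF had ratios of 1.42 in Sertoli-like and 1.594 in endothelial-like cells, against 0.81 in stromal-like and 0.558 in T or NK lymphoid-like cells. TPX2 had ratios of 1.128 in germ-like, 1.358 in Sertoli-like and 1.366 in endothelial-like cells, against 0.766 in stromal-like and 0.744 in T or NK lymphoid-like cells, and centred on all features its germ-like log2 ratio was −0.033.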

How the results depend on the processing

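Of the values that answer a comparison (shares of cells, counts of members, medians of log2 ratios), 507 kept to their bounds over all alternatives run and 118 did not, the bounds being the counting interval of a share, 1.5 times a count, and for a median the typical interval of its members. Of the values of single members 3275 stayed within their interval, 462 did not and 9 more changed sign. Where a value changed the cause was not tested, except that thinning to another depth and centring change values by their construction. No paired analysis was possible because each stage has 1 library. Another random draw of the thinning, and gating the oocyte-like and pregranulosa-like cells on all UMIs, moved no value that answers a comparison. With cells thinned to 2000 UMIs, 3 or more S phase UMIs were found in 31.5% (E85) and 40.0% (E105) of germ-like cells, 4.77% (E85) and 6.1% (E105) of Sertoli-like cells and 11.2% (E85), 11.1% (E105) and 5.82% (E125) of stromal-like cells. The same share was 9.58% (E85), 6.41% (E105) and 6.46% (E125) in endothelial-like cells, 8.23% (E105) in T or NK lymphoid-like cells and 41.4% (E125) in oocyte-like cells. 3 or more G2/M UMIs were found in 43.8% (E85) and 45.3% (E105) of germ-like cells, 5.25% (E85) of Sertoli-like cells and 8.81% (E85), 6.41% (E105) and 5.57% (E125) of stromal-like cells. The same share was 60.9% (E125) in oocyte-like cells and 6.29% (E125) in endothelial-like cells. Members concentrated numbered 22 in stromal-like cells (E85), 13 in Sertoli-like cells (E105), 27 in stromal-like cells (E105) and 2 in pregranulosa-like cells (E125). With cells thinned to 6000 UMIs, 3 or more S phase UMIs were found in 86.4% (E85) and 94.5% (E105) of germ-like cells, 18.6% (E85) and 24.6% (E105) of Sertoli-like cells, 39.2% (E85), 30.7% (E105) and 35.1% (E125) of endothelial-like cells and 33.3% (E85) and 31.4% (E105) of T or NK lymphoid-like cells. The same share was 85.7% (E125) in oocyte-like cells, 20.1% (E125) in pregranulosa-like cells and 28.5% (E125) in stromal-like cells. 3 or more G2/M UMIs were found in 88.9% (E85) and 90.4% (E105) of germ-like cells, 7.8% (E85) and 10.2% (E105) of Sertoli-like cells and 22.2% (E85) and 22.3% (E105) of T or NK lymphoid-like cells. The same share was 21.6% (E105) and 15.4% (E125) in endothelial-like cells, 95.7% (E125) in oocyte-like cells and 21.8% (E125) in stromal-like cells. Members concentrated numbered 8 in germ-like cells (E85), 7 in endothelial-like cells (E85), 6 in germ-like cells (E105), 13 in T or NK lymphoid-like cells (E105), 1 in oocyte-like cells (E125) and 14 in stromal-like cells (E125). With a gate of 2 markers, members concentrated numbered 8 in T or NK lymphoid-like cells (E85). The count of members at E105 at least 1.5 times higher was 1 in Sertoli-like cells and 1 in T or NK lymphoid-like cells. At least 1.5 times lower at E105 were 12 in T or NK lymphoid-like cells. Members at least 2 times lower numbered 2 in oocyte-like against pregranulosa-like cells (E125). Medians of the log2 ratio were 0.92 for oocyte-like over pregranulosa-like cells (G2/M, E125). With a gate of 4 markers, 3 or more G2/M UMIs were found in 15.1% (E105) of T or NK lymphoid-like cells. The count of members at E105 at least 1.5 times higher was 1 in Sertoli-like cells and 5 in T or NK lymphoid-like cells. At least 1.5 times lower at E105 were 1 in Sertoli-like cells. Members at least 2 times lower numbered 1 in germ-like against Sertoli-like cells (E85). With every class gated on thinned UMIs, the count of members at E105 at least 1.5 times higher was 7 in Sertoli-like cells and 5 in endothelial-like cells. At least 1.5 times lower at E105 were 1 in Sertoli-like cells, 5 in stromal-like cells and 0 in endothelial-like cells. The median log2 ratio was −0.40 for stromal-like cells between stages (G2/M). The log2 ratio changed sign to −0.013 for MCM4 in Sertoli-like cells at E105 over E85. With at most 10% mitochondrial UMIs, members concentrated numbered 6 in germ-like cells (E105) and 1 in oocyte-like cells (E125). Members at least 1.5 times higher at E105 numbered 1 in Sertoli-like cells. The count of members at E105 at least 1.5 times lower was 1 in endothelial-like cells and 3 in T or NK lymphoid-like cells. Without the 5% deepest cells of each class, 3 or more S phase UMIs were found in 28.2% (E105) of stromal-like cells. 3 or more G2/M UMIs were found in 5.02% (E85) and 5.67% (E105) of Sertoli-like cells, 12.0% (E105) and 7.18% (E125) of stromal-like cells and 6.19% (E105) of T or NK lymphoid-like cells. Members concentrated numbered 3 in germ-like cells (E85). At least 1.5 times higher at E105 were 1 in Sertoli-like cells and 1 in T or NK lymphoid-like cells. Members at least 1.5 times lower at E105 numbered 1 in Sertoli-like cells, 2 in stromal-like cells and 0 in endothelial-like cells. With ratios centred on the median of all features, the count of members at E105 at least 1.5 times higher was 4 in germ-like cells, 1 in Sertoli-like cells and 3 in endothelial-like cells. At least 2 times higher were 10 in germ-like against Sertoli-like cells (E85) and 12 in germ-like against Sertoli-like cells (E105). Members at least 1.5 times lower at E105 numbered 1 in Sertoli-like cells. The count of members at least 2 times lower was 1 in germ-like against Sertoli-like cells (E85) and 2 in germ-like against Sertoli-like cells (E105). Medians of the log2 ratio were 0.77 for germ-like over Sertoli-like cells (S phase, E85), 0.61 for germ-like over Sertoli-like cells (G2/M, E85), 1.09 for germ-like over Sertoli-like cells (S phase, E105) and 0.68 for germ-like over Sertoli-like cells (G2/M, E105). The log2 ratio changed sign to −0.033 for TPX2 in germ-like cells at E105 over E85, −0.52 for PCNA in germ-like over Sertoli-like cells (E85), −0.0026 for TOP2A in germ-like over Sertoli-like cells (E85) and −0.30 for TOP2A in germ-like over Sertoli-like cells (E105). With a minimum of 50 UMIs, at least 1.5 times higher at E105 were 1 in T or NK lymphoid-like cells. Members at least 1.5 times lower at E105 numbered 0 in endothelial-like cells and 2 in T or NK lymphoid-like cells. The count of members at least 2 times lower was 2 in oocyte-like against pregranulosa-like cells (E125). The median log2 ratio was 0.95 for oocyte-like over pregranulosa-like cells (G2/M, E125). With no minimum of UMIs, at least 1.5 times lower at E105 were 4 in endothelial-like cells. With class sums taken from thinned cells, members at least 1.5 times higher at E105 numbered 4 in germ-like cells, 7 in Sertoli-like cells and 0 in T or NK lymphoid-like cells. The count of members at least 2 times higher was 9 in oocyte-like against pregranulosa-like cells (E125). At least 1.5 times lower at E105 were 8 in stromal-like cells and 0 in endothelial-like cells. Members at least 2 times lower numbered 2 in oocyte-like against pregranulosa-like cells (E125). Medians of the log2 ratio were −0.58 for stromal-like cells between stages (G2/M), 2.33 for germ-like over Sertoli-like cells (S phase, E85), 1.83 for germ-like over Sertoli-like cells (G2/M, E85) and 1.44 for oocyte-like over pregranulosa-like cells (G2/M, E125). The log2 ratio changed sign to −0.37 for MCM6 in germ-like cells at E105 over E85, 0.027 for RRM2 in Sertoli-like cells at E105 over E85, −0.083 for PCNA in germ-like over Sertoli-like cells (E85) and 0.070 for AURKB in germ-like over Sertoli-like cells (E85). With cells ranked by the gene's own list, members concentrated numbered 20 in stromal-like cells (E85), 25 in stromal-like cells (E105) and 1 in oocyte-like cells (E125). With 1 library per stage, depth limits only the counting error: members under 20 UMIs are left unread, germ-like cells at E105 number 75, and no interval covers the spread between animals.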
